A study of Mus musculus with 8 samples.

Results

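The genes of the elastic fibre and of collagen crosslinking were followed in the endometrium of mice with a mutated thyroid hormone receptor. They are elastin (Eln), the fibrillins Fbn1 and Fbn2, the fibulins Fbln1, Fbln2 and Fbln5, the lysyl oxidases Lox, Loxl1 and Loxl2, and the microfibril-associated gene Mfap4. The genes were chosen by symbol, through the Ensembl identifier of each row with its version removed, and these 10 genes are 10 of the 52325 genes in the deposited count table. Each symbol matched 1 row, and 10 of 10 passed the filter on low counts that left 18174 genes for testing.

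Frozen sections of uterus from 4 Thra1PV/+ mice and 4 WT mice supplied the endometrium, which was cut out with a laser and sequenced as bulk RNA. Thra1PV/+ mice carry the PV mutation, which makes the receptor TRα1 dominant negative, in 1 allele of Thra, and WT mice carry none. All 8 animals were brought to metestrus, and their age is not given in the sources used here. The estimated counts, rounded to whole numbers, summed to between 48791602 and 59818887 per library. Counts per gene do not tell the mutated transcript of Thra from the normal one. The capture took the endometrium whole, so that each library mixes the RNA of stroma, epithelium, vessels and immune cells, and in such bulk samples fewer cells of a type and less RNA per cell cannot be told apart.

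Elastic fibres give tissues their recoil. A scaffold of fibrillin microfibrils receives elastin monomers, fibulins bring monomers and crosslinking enzymes together, and lysyl oxidases oxidize lysine residues so that elastin, and likewise fibrillar collagen, become covalently crosslinked. In the uterus these proteins come mainly from fibroblast-like stromal cells and smooth muscle, and the matrix they form is remodelled over the reproductive cycle.

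The libraries differed within each genotype in how much stromal RNA they held, and this is given first because 4 of the 10 members had the same 3 libraries highest, while the other 6 did not. The summed level of 15 stroma markers, all 15 of them tested, was 2962 CPM (counts scaled to a common library size after TMM normalization) in Thra1PV/+ 1, 597 in Thra1PV/+ 2, 950.1 in Thra1PV/+ 3 and 1155 in Thra1PV/+ 4. In WT endometrium it was 3913 CPM in WT 1, 3956 in WT 2, 1510 in WT 3 and 1667 in WT 4. Thra1PV/+ 1, WT 1 and WT 2 were thus the libraries with the most stroma marker RNA, and the genotypes overlapped. Per length, the stroma marker with the highest mean over the 8 libraries was Dcn (309 TPM), through WT (497 TPM), and in Thra1PV/+ Vim was higher (147 against 122 TPM). No stroma marker was at 0 counts in any library. Markers of simple uterine epithelium ran the other way, with summed levels of 7699, 5824 and 4078 CPM in Thra1PV/+ 1, WT 1 and WT 2, against 14156 to 25198 CPM in the other libraries. Of those 10 markers, 9 had their lowest values in the same 3 libraries. Sprr2f had their highest mean TPM over the 8 libraries, 7346, but in WT Ltf was higher (5551 against 5269 TPM).

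WT 1 stood apart in smooth muscle RNA. The summed level of 11 smooth muscle markers was 16332 CPM in WT 1, 993 in WT 2, 697 in WT 3 and 1452 in WT 4, and in Thra1PV/+ 1 to 4 it was 646, 206, 296 and 867 CPM. Acta2, the actin of smooth muscle, had the highest mean of the list per length, 401 TPM, through its 2585 TPM in WT 1, and over the Thra1PV/+ libraries Tagln was higher (74.6 against 54.2 TPM). Acta2 measured 4154 CPM in WT 1 and between 126 and 297 CPM in the other WT libraries. At an unadjusted p under 0.05, 10 of the 11 smooth muscle markers were lower in Thra1PV/+ endometrium in edgeR's quasi-likelihood test, 0 were called, and the median log2 fold change was -3.92. Without WT 1 it was 1 of 11, with a median of -1.15, and without any other single library 5 to 11 of 11. Exactly 1 smooth muscle marker was at 0 counts in Thra1PV/+ 3, and none in the other libraries. Squamous epithelium markers separated the genotypes: they summed to between 3073 and 4725 CPM in Thra1PV/+ and between 1.89 and 68.1 CPM in WT libraries. Of these 11 markers, 10 were called higher, against 0.924% of all tested genes, and 5 to 10 were called with a library left out, 6 with the replicate block and 6 with a smooth muscle marker term. Krt5 had the highest mean over the 8 libraries at 382 TPM, with Krt13 higher in WT (7.21 against 4.56 TPM). Of the 11, 2 were at 0 counts in WT 1 and 1 in WT 2. The part that stroma, smooth muscle or squamous epithelium has in the results on the members was not tested.

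**Figure D1:**
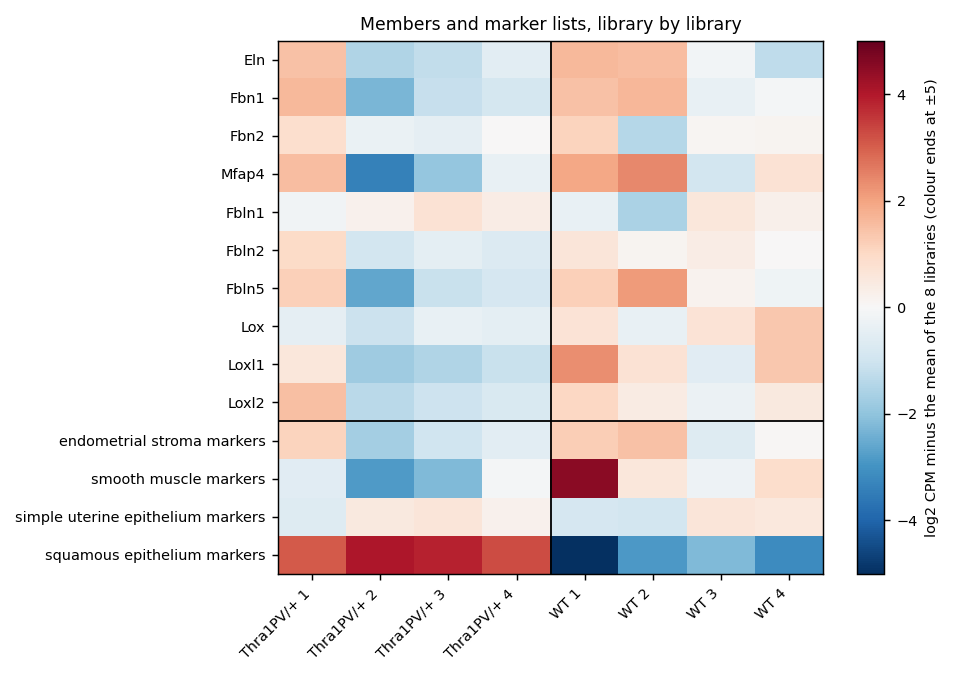
Colours show, for each library (columns), the log2 CPM of each member and the mean log2 CPM of 4 marker lists (rows), minus the mean over the 8 libraries. Eln, Fbn1, Fbln5 and Mfap4 are red in Thra1PV/+ 1, WT 1 and WT 2, as the stroma markers are, and smooth muscle markers are darkest in WT 1.

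Across the members, 0 of 10 were called in edgeR's quasi-likelihood test with thresholds of a 2-fold difference and a Benjamini-Hochberg adjusted p of 0.1, where 0.990% of all tested genes were called (180 genes), 0.0660% lower and 0.924% higher. At an unadjusted p under 0.05, 2 of 10 members, Lox and Loxl1, were lower in Thra1PV/+ endometrium and none was higher, and by that rule 4.72% of all tested genes were lower and 5.05% higher. The count at that p depends on the test: limma voom with sample quality weights gave 7 of 10 members, all lower, against 6.33% of all tested genes, and a median log2 fold change of the members of -1.27. In the same fit 7 of 15 stroma markers (median -1.11) and 9 of 11 smooth muscle markers were lower at that p. DESeq2 called 1 member, Lox, lower, against 1.01% of the genes it gave an adjusted p. On simulated counts DESeq2 made a larger share of false calls than edgeR or limma did. Those counts were drawn gene by gene from edgeR's own estimates of spread, without differences in tissue make-up, and need not stand for these data. Limma voom called 1 member, Loxl1, lower, against 0.319% of all genes. The log2 fold change (Thra1PV/+ against WT) was below 0 in 9 of 10 members, as in 56.8% of all tested genes. Its median was -0.81 over the members and -0.053 over all tested genes. By genotype, the groups did not overlap in 1 of 10 members, Lox, with the lower values in Thra1PV/+, and 2.49% of all tested genes were lower without overlap.

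**Figure D2:**
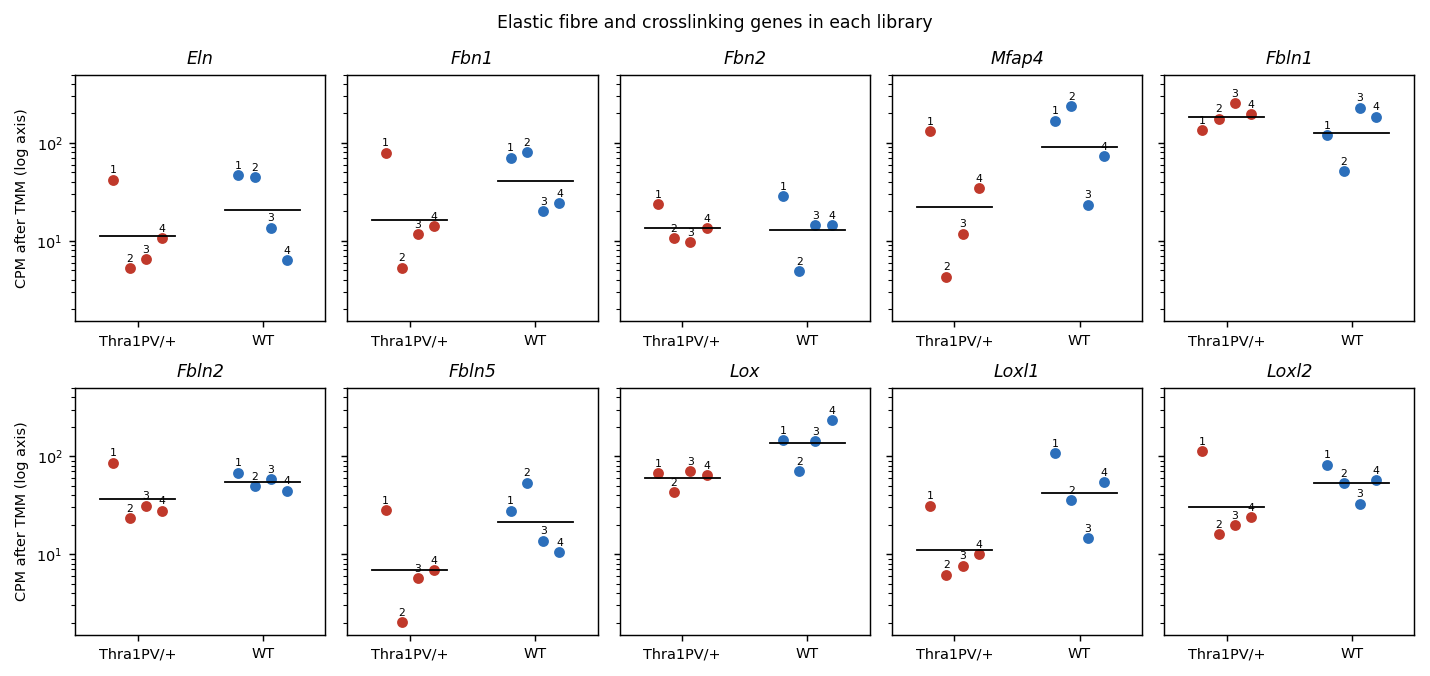
Each point is the CPM of 1 library on a log axis, numbered by replicate, for the 10 members in Thra1PV/+ (red) and WT (blue) endometrium, and the bar is the geometric mean of 4 libraries. In most panels replicate 1 of Thra1PV/+ lies above the other Thra1PV/+ libraries, and in the panel of Lox the highest Thra1PV/+ value, 69.9 CPM, lies just under the lowest WT value, 70.1 CPM.

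Lox and Loxl1, both lysyl oxidases, held the smallest p-values among the members. Lox (ENSMUSG00000024529.13), the founding member of the family, which crosslinks both elastin and fibrillar collagen, measured 66.9, 43.2, 69.9 and 64.5 CPM in Thra1PV/+ 1 to 4 and 145, 70.1, 143 and 232 CPM in WT 1 to 4. All Thra1PV/+ libraries were low, WT 2 was level with the highest of them, and WT 1, WT 3 and WT 4 lay above every Thra1PV/+ library by more than the whole Thra1PV/+ range. The means were 61.1 ± 12.2 CPM (SD, n = 4) and 148 ± 66.2 CPM (SD, n = 4). The log2 fold change was -1.27 (standard error, SE, 0.34), with an unadjusted p of 0.00504 and an adjusted p of 0.230 in edgeR's quasi-likelihood test, so that Lox was not called. Its adjusted p was 0.0383 with DESeq2, the authors' tool, which made more false calls on counts simulated from edgeR's own estimates of spread. Without WT 2, the lowest of the WT libraries, edgeR gave Lox a log2 fold change of -1.48 and an adjusted p of 0.0664, so that it was called, where 0.0702% of all tested genes were called lower. Over the libraries left out in turn, the adjusted p of Lox ran from 0.0664 to 0.511, and over the other settings from 0.0383 to 0.478. Under 20 of 20 alternative settings its estimate was below 0.

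Loxl1, the oxidase tied most closely to elastin and needed for the renewal of elastic fibres after birth in mice, lies on chromosome 9 (GRCm38, 58287738 to 58313186, ENSMUSG00000032334.10, minus strand). It measured 31.4, 6.17, 7.62 and 9.999 CPM in Thra1PV/+ 1 to 4 and 107, 35.7, 14.6 and 54.0 CPM in WT 1 to 4. Thra1PV/+ 1 was above WT 3, so that the groups overlapped, and WT 1 was the highest of all. Between genotypes Loxl1 differed by -1.94 on the log2 scale (SE 0.71), with an unadjusted p of 0.0247 and an adjusted p of 0.414 in edgeR's quasi-likelihood test. Its log2 fold change without WT 1, the library rich in smooth muscle RNA, was -1.30 with an unadjusted p of 0.0841. Leaving out Thra1PV/+ 2, 3 or 4 also took that p above 0.05, to 0.0592, 0.0624 and 0.0622. With limma voom and sample quality weights the log2 fold change was -2.33 and the adjusted p 0.0950, and over the other settings, apart from libraries left out, the adjusted p reached 0.899.

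Loxl2, which crosslinks collagen IV of basement membranes, lies on chromosome 14 (69609068 to 69695834, ENSMUSG00000034205.16, plus strand). It measured 114, 15.9, 19.7 and 23.7 CPM in Thra1PV/+ 1 to 4 and 81.9, 52.8, 32.7 and 57.1 CPM in WT 1 to 4. Thra1PV/+ 1 was the highest of the 8 libraries and the other Thra1PV/+ libraries were the lowest, so the groups overlapped through a single library. Loxl2 had an estimate of -0.38 (log2 fold change, SE 0.64, adjusted p = 0.903, edgeR's quasi-likelihood test). Without Thra1PV/+ 1 it was -1.46 (SE 0.32), with an unadjusted p of 0.00218 and an adjusted p of 0.147.

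**Figure D3:**
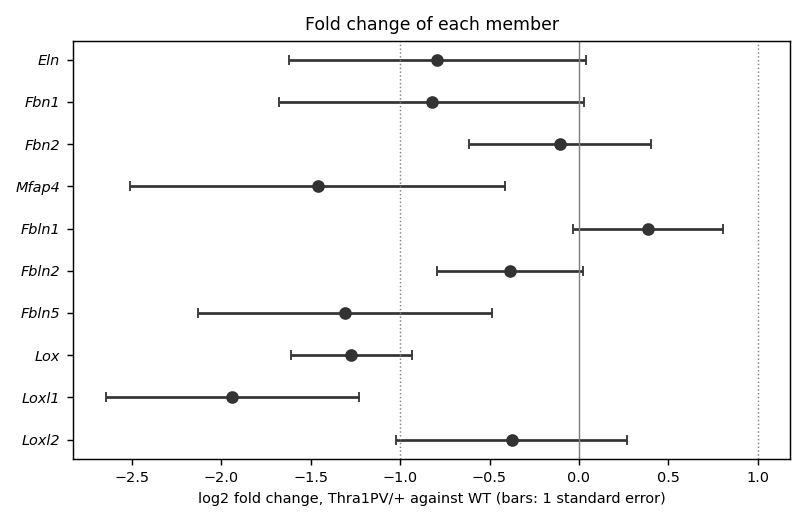
Points give the log2 fold change of each member, Thra1PV/+ against WT, and bars 1 standard error from edgeR's quasi-likelihood fit, with dotted lines at a fold change of 2 in either direction. Loxl1 (-1.94), Mfap4 (-1.46), Fbln5 (-1.31) and Lox (-1.27) lie beyond the dotted line, and the bar of Lox is the shortest of these.

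Among the genes of the fibre itself, Eln encodes tropoelastin, the monomer of the elastic core, and lies on chromosome 5 (134702593 to 134747323, ENSMUSG00000029675.12, minus strand). Its levels were 42.2, 5.30, 6.48 and 10.6 CPM in Thra1PV/+ 1 to 4 and 47.0, 44.7, 13.7 and 6.32 CPM in WT 1 to 4. The 3 libraries with the most stroma marker RNA were high and the other 5 low, in both genotypes, and the groups overlapped. The genotypes differed by -0.79 on the log2 scale (SE 0.83, adjusted p = 0.826, edgeR's quasi-likelihood test). With a library left out, the estimate for Eln ran from -1.86 (without Thra1PV/+ 1) to -0.38 (without WT 1).

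Fbn1 encodes fibrillin-1, the main protein of adult microfibrils, and lies on chromosome 2 (125300594 to 125507993, ENSMUSG00000027204.13, minus strand). It measured 79.6, 5.32, 11.7 and 14.0 CPM in Thra1PV/+ 1 to 4 and 70.5, 80.9, 20.0 and 24.3 CPM in WT 1 to 4. The same 3 libraries were high again, and within the other 5 the Thra1PV/+ libraries lay below both WT libraries. EdgeR put the log2 difference of Fbn1 at -0.82 (SE 0.85, adjusted p = 0.824, edgeR's quasi-likelihood test). That difference ran from -2.19 without Thra1PV/+ 1 to -0.45 without WT 2 when a library was left out, and was -1.55 with limma voom.

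Fbn2 (ENSMUSG00000024598.8), the fibrillin most abundant in developing tissue, ran from 9.66 to 23.9 CPM in Thra1PV/+ and from 4.88 to 28.5 CPM in WT libraries. WT 2, high for Fbn1, was the lowest library for Fbn2, and the Thra1PV/+ values lay within the WT range. The estimate for Fbn2, as a log2 fold change, was -0.11 (SE 0.51, adjusted p = 0.973, edgeR's quasi-likelihood test), the nearest to 0 among the members.

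Mfap4, a secreted protein that binds fibrillin and elastin in the fibre, lies on chromosome 11 (61485431 to 61488900, ENSMUSG00000042436.12, plus strand). It measured 132, 4.30, 11.9 and 34.5 CPM in Thra1PV/+ 1 to 4 and 169, 237, 23.5 and 73.3 CPM in WT 1 to 4. It varied most among the members, 55.2-fold between the lowest and the highest library, and Thra1PV/+ 1 was above WT 3 and WT 4. With so wide a spread, its estimate of -1.46 (log2 fold change) had the largest standard error of the members (SE 1.05, adjusted p = 0.715, edgeR's quasi-likelihood test). The estimate for Mfap4 was -2.85 without Thra1PV/+ 1 and -0.94 without WT 2, the ends of its range over the libraries left out.

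Among the fibulins, Fbln5, which binds elastin and brings it to the microfibril, lies on chromosome 12 (101746565 to 101819055, ENSMUSG00000021186.9, minus strand). It measured 28.1, 2.03, 5.68 and 6.83 CPM in Thra1PV/+ 1 to 4 and 27.8, 53.5, 13.7 and 10.5 CPM in WT 1 to 4. Thra1PV/+ 1 was as high as WT 1, the other Thra1PV/+ libraries were below every WT library, and Thra1PV/+ 2 held 100 counts. For Fbln5 the estimate was -1.31 (log2 fold change, SE 0.82, adjusted p = 0.665, edgeR's quasi-likelihood test). Leaving out a library moved it to between -2.39 (without Thra1PV/+ 1) and -0.68 (without WT 2).

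Fbln2, a fibulin of basement membranes and elastic fibres, lies on chromosome 6 (91212455 to 91272540, ENSMUSG00000064080.12, plus strand). Its levels were 85.9, 23.4, 31.3 and 27.9 CPM in Thra1PV/+ 1 to 4 and 68.2, 49.5, 58.1 and 44.6 CPM in WT 1 to 4. Thra1PV/+ 1 was the highest library and the other Thra1PV/+ libraries were the lowest. Between genotypes Fbln2 differed by -0.39 on the log2 scale (SE 0.41, adjusted p = 0.828, edgeR's quasi-likelihood test), and without Thra1PV/+ 1 it was -0.95 (SE 0.19, unadjusted p of 0.00135 and adjusted p of 0.126).

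Fbln1, a fibulin of the extracellular matrix that binds fibronectin and nidogen, lies on chromosome 15 (85205949 to 85286535, ENSMUSG00000006369.14, plus strand) and was the member with the opposite order. It measured 135, 177, 254 and 198 CPM in Thra1PV/+ 1 to 4 and 119, 51.9, 229 and 185 CPM in WT 1 to 4. The 3 libraries high for Eln were the lowest for Fbln1, and the groups overlapped. The estimate for Fbln1 was 0.39 (log2 fold change, SE 0.42, adjusted p = 0.834, edgeR's quasi-likelihood test), above 0 in 20 of 20 settings. Its size varied, from 0.14 without WT 2 to 0.70 without WT 3, and it was 0.037 with a stroma marker term.

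The shared order of the libraries can be put as a count. Thra1PV/+ 1, WT 1 and WT 2 were the 3 highest libraries for 4 of 10 members (Eln, Fbn1, Fbln5 and Mfap4), for 9 of 15 stroma markers and for 13.7% of all tested genes. The same held for 6 of 8 endothelial markers and 4 of 5 blood genes, larger shares than among the stroma markers, whose sum was what these 3 libraries were picked by. They were the 3 lowest for 1 of 10 members, Fbln1, and for 9.67% of all tested genes. The order of Lox was another one, with WT 1, WT 3 and WT 4 as the highest libraries.

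Promoters of members that shared or opposed this order are shown, as RefSeq windows from 250 bases before to 50 bases after a start site (GRCm38.p6). Windows are given for 4 of the 10 members, Fbn1, Fbln1, Fbln2 and Fbln5. None is given for Eln, Fbn2, Lox, Loxl1, Loxl2 or Mfap4. For Fbn2 and Lox this does not show that no window exists. Capitals mark AGGTCA, the half-site to which thyroid hormone receptors bind, and GGGCGG, the GC box bound by Sp1, on either strand (TGACCT and CCGCCC on the other). Of 32851 windows of 300 bases, 16.3% hold AGGTCA and 35.7% hold GGGCGG. The windows are Fbn1 on chr2:125506389-125506688 (minus strand), Fbln5 on chr12:101819070-101819369 and on chr12:101818435-101818734 (both minus strand), and Fbln1 on chr15:85205758-85206057 (plus strand).
Fbn1: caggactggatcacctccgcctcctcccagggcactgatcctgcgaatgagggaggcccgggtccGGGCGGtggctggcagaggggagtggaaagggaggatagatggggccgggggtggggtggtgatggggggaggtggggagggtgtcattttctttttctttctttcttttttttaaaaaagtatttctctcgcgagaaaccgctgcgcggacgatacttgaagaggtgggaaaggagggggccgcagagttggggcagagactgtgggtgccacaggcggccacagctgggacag
Fbln5, outer start site: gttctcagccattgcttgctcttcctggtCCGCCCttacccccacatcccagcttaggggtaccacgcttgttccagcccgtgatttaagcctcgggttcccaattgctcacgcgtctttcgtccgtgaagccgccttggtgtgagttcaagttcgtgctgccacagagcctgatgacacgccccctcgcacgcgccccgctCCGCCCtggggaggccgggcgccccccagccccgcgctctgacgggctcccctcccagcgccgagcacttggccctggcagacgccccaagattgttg
Fbln5, inner start site: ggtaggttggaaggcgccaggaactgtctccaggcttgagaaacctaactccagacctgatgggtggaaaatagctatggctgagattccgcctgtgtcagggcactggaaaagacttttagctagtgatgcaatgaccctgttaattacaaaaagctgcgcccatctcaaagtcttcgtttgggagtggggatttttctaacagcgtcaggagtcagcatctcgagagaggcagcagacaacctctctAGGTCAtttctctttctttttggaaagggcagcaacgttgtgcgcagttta
Fbln1: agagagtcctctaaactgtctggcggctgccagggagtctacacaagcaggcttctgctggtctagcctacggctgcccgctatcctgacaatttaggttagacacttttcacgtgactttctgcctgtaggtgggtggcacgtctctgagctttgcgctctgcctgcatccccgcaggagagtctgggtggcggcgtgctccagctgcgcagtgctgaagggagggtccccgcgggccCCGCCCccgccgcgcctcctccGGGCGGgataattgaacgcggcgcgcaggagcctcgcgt
AGGTCA occurs 1 time, in the window of the inner start site of Fbln5, and not in the other windows printed. GGGCGG occurs 1 time in the Fbn1 window, 2 times in the outer window of Fbln5 and 2 times in that of Fbln1. A further Fbln1 window (chr15:85205699-85205998, plus strand), which overlaps the one printed, holds neither motif, and the Fbln2 window holds GGGCGG 2 times and no AGGTCA. A match is a description of these letters and not a binding site.

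Levels of different genes were compared per transcript length, in the deposited TPM values, whose distribution had been made nearly equal between libraries. Fbln1 had the highest mean over the 8 libraries, 81.4 TPM, with a range of 25.5 to 118 TPM, and Mfap4 followed at 73.2 TPM, with a range of 3.95 to 209 TPM. That order held in Thra1PV/+ (92.5 against 41.3 TPM), whereas in WT Mfap4 was higher (105 against 70.2 TPM). Lox (34.6 TPM) and Fbln2 (32.1 TPM) came next and overlapped in range, and in Thra1PV/+ Fbln2 was above Lox (27.3 against 21.5 TPM). Loxl1 (15.01 TPM), Loxl2 (11.5 TPM), Fbln5 (10.6 TPM) and Eln (10.04 TPM) formed a middle group whose order does not hold beyond the spread between libraries. Fbn1 (4.55 TPM) and Fbn2 (1.69 TPM) were lowest, and Fbn1 was at 0.673 TPM in Thra1PV/+ 2. For Lox, the TPM values again met at the edge, with 25.0 TPM in both Thra1PV/+ 1 and WT 2.

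**Figure D4:**
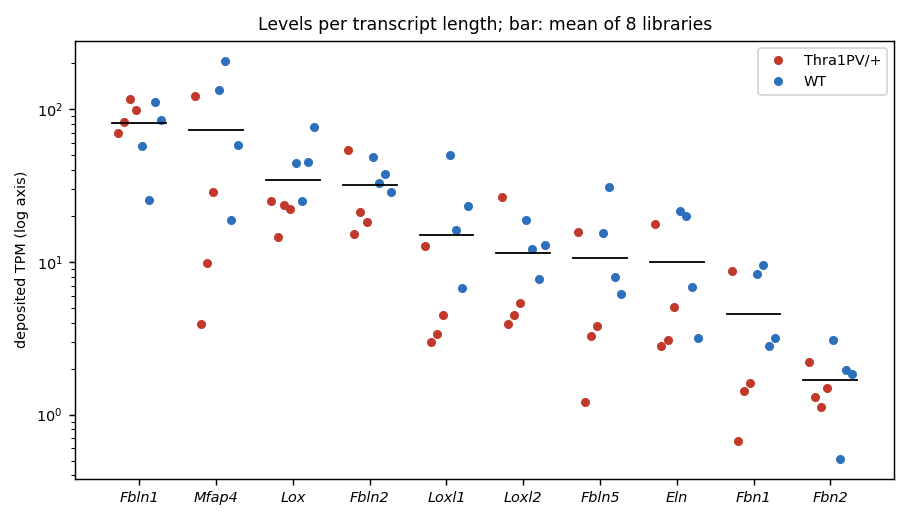
Deposited TPM of each member in each library on a log axis, Thra1PV/+ in red and WT in blue, ordered by the mean of 8 libraries (bar). Fbln1 lies highest (81.4 TPM) and Fbn2 lowest (1.69 TPM), and Mfap4 spans 3.95 to 209 TPM.

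The results that rest on the libraries that stood apart were computed with and without them. Without Thra1PV/+ 1, the median log2 fold change of the members was -1.66, and 8 of 10 members had an unadjusted p under 0.05, all of them lower in Thra1PV/+, against 6.29% of all tested genes, while 0 were called. In that fit 10 of 15 stroma markers (median -1.60, from -0.78) and 5 of 10 fibrillar collagens (median -1.24, from -0.37) were lower at that p too. Of the smooth muscle markers, 8 of 11 were (median -3.71), against 10 of 11 with all libraries (median -3.92). Without WT 1 the median of the members was -0.47 and 1 member was lower at that p, against 3.53% of all tested genes. Without WT 2 it was -0.45 with 2 members, against 3.61%. Leaving out Thra1PV/+ 1, WT 1 and WT 2 together, a choice made after seeing the data that compares 3 libraries with 2, gave a median of -1.10, and 6 of 10 members were lower at that p, against 5.30% of all tested genes, with 0 called. The stroma markers were not evened out by this, with a median of -0.85 and 3 of 15 lower at that p. For Lox the log2 estimate was then -1.63 (SE 0.29) and an adjusted p of 0.106 in edgeR's quasi-likelihood test.

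A term for the mean log2 CPM of the stroma markers, also chosen after seeing the data, brought the median of the members to -0.11, and 2 of 10 members (Lox and Loxl1) had an unadjusted p under 0.05, both lower, against 6.98% of all tested genes. The log2 fold change of Lox was -1.32 (SE 0.37) with that term, that of Loxl1 -1.22, and those of Eln, Fbn1 and Loxl2 were 0.089, -0.063 and 0.016. With a term for smooth muscle markers in its place, the median of the members was 0.060, and 1 of 10 members, Lox, was lower at that p, against 5.10% of all tested genes. For Lox the log2 estimate was then -1.14 (SE 0.47) and for Loxl1 -0.32 (SE 0.62). The mean of the smooth muscle markers nearly followed genotype, at 2.21 to 4.93 log2 CPM in Thra1PV/+ and 4.78 to 9.52 in WT libraries. A term for it therefore also takes up part of the genotype difference, and the 2 cannot be told apart in these fits.

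**Figure D5:**
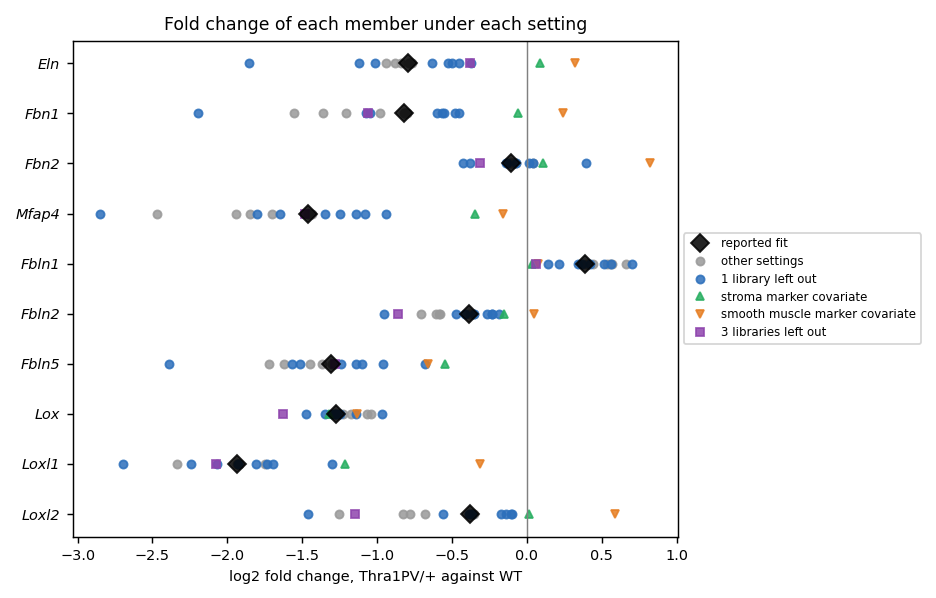
Log2 fold change of each member, Thra1PV/+ against WT, in the reported fit (black diamonds), with 1 library left out (blue), with 3 libraries left out (purple), with a stroma (green) or smooth muscle (orange) marker term, and under other settings (grey). Points of Lox stay between -1.63 and -0.97, whereas Eln, Fbn1, Fbn2, Fbln2 and Loxl2 reach both sides of 0.

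Other genes of the same structures were read from fixed lists. Of 19 tested genes among 20 other microfibril and elastic fibre genes, 0 were called by edgeR, 3 by DESeq2 and 1 by limma voom, all of these lower. DESeq2 tested 18 genes of the list. Over all genes, 1.01% were called lower by DESeq2 (of those it gave an adjusted p), 0.319% by limma voom and 0.0660% by edgeR. An unadjusted p under 0.05 was reached by 6 genes with lower and 1 with higher levels, beside 4.72% of all tested genes lower and 5.05% higher by that rule, and the median log2 fold change was -0.61. With a library left out, 2 to 9 genes were lower and 0 to 2 were higher, with 0 higher without Thra1PV/+ 2 or Thra1PV/+ 3. The median then ran from -1.11 (without Thra1PV/+ 1) to -0.19 (without WT 1). In 2 of these fits, without Thra1PV/+ 1 and without WT 2, 1 gene was called lower. Over all tested genes, 14 of 18568 were called lower without Thra1PV/+ 1 and 13 of 18506 without WT 2. The median turned sign with the stroma marker term (0.019), where 0 genes were higher at that p, and with the smooth muscle marker term (0.24). Fbln7, a short fibulin that binds cells, differed by -1.66 on the log2 scale (SE 0.44, unadjusted p of 0.00488). Adamts10, a protease that binds fibrillin, differed by -0.82 (SE 0.22, unadjusted p of 0.00519). Adamts10 measured 27.2 to 34.1 CPM in Thra1PV/+ and 40.5 to 80.3 CPM in WT libraries, without overlap, and Fbln7 overlapped through WT 2 at 8.87 CPM. Ltbp2, the gene with higher levels, did not overlap either, at 67.7 to 173 CPM in Thra1PV/+ and 2.31 to 63.2 CPM in WT libraries, and differed by 2.01 (SE 0.81, unadjusted p of 0.0370). The hemicentin Hmcn1 had a log2 fold change of -1.66 at no more than 2.73 CPM, but its deposited TPM went the other way, with means of 0.371 in Thra1PV/+ and 0.216 in WT. Hmcn2, the other hemicentin, had a log2 fold change of -3.04 and was at 63.7 CPM in WT 1 and at most 5.61 CPM in the other libraries. Mfap2, a microfibril glycoprotein and the highest of the list in mean TPM over the 8 libraries (105 TPM), had a log2 fold change of -0.27 (adjusted p = 0.912, edgeR's quasi-likelihood test). In WT alone Ltbp4 (143 TPM) and Mfap5 (139 TPM) were above Mfap2 (112 TPM). Emilin3 was not tested for low counts.

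Of 28 tested genes among 29 other genes of collagen crosslinking and processing, which hydroxylate, fold, cleave and crosslink procollagen, 0 were called by edgeR, 2 by DESeq2 and 1 by limma voom, all of these lower. The shares called lower over all genes were 0.0660% by edgeR, 1.01% by DESeq2 (of the genes it gave an adjusted p) and 0.319% by limma voom. An unadjusted p under 0.05 was reached by 3 genes with lower and 0 with higher levels, beside 4.72% of all tested genes that were lower, and the median was -0.24. With a library left out, 2 to 5 genes were lower and the median ran from -0.46 (without Thra1PV/+ 1) to -0.062 (without WT 1). It was -0.012 with the stroma marker term and turned sign, to 0.080, with the smooth muscle marker term. P4ha3, a prolyl 4-hydroxylase subunit, differed by -2.47 on the log2 scale (SE 0.65, unadjusted p of 0.00479) at no more than 3.13 CPM in any library. On the same scale Colgalt2, which adds galactose to hydroxylysine, was at -1.85, Adamts14, a procollagen N-proteinase, at -1.32, and Tll1, a relative of the C-proteinase Bmp1, at -1.60 with an unadjusted p of 0.0697. Ppib, a prolyl isomerase and the highest of the list at 495 TPM, ran from 309 to 382 CPM over the 8 libraries. Tll2 was not tested for low counts.

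Fibrillar collagens, the other substrate of the lysyl oxidases, had Thra1PV/+ 1, WT 1 and WT 2 as the 3 highest libraries for 6 of 10 tested genes of the 11 listed, against 13.7% of all tested genes. Summed over the list, they came to 5519, 432, 961 and 1349 CPM in Thra1PV/+ 1 to 4 and 3812, 4106, 1358 and 1384 CPM in WT 1 to 4. No fibrillar collagen was called by edgeR, DESeq2 or limma voom or had an unadjusted p under 0.05 in edgeR's test, and the median log2 fold change was -0.37. Without Thra1PV/+ 1, 5 of 10 were lower at that p and the median was -1.24, and without WT 2 it was 0 of 10 and -0.075, the ends of the range over the libraries left out. The median turned sign with the stroma marker term (0.047) and the smooth muscle marker term (0.36). Col3a1, the highest per length at 382 TPM, differed by -0.33 on the log2 scale (SE 0.93), and those of Col5a2, Col5a3, Col11a1 and Col24a1, which have the smallest p-values, were -0.61, -0.58, -0.81 and -0.40. Col2a1 was not tested for low counts.

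Among 13 tested of 17 elastin-degrading proteases and inhibitors, 0 were called by edgeR, DESeq2 or limma voom. At an unadjusted p under 0.05, 1 gene had higher and 0 had lower levels, beside 5.05% of all tested genes higher and 4.72% lower, and the median was -0.35. The sign of that median turned in some fits: it ran from -0.50 without WT 2 to 0.15 without WT 1, and was 0.56 with the smooth muscle marker term and 0.010 with the stroma marker term. With limma voom it kept its sign at -0.034. Ctss, the elastolytic cathepsin S of macrophages, differed by 0.98 on the log2 scale (SE 0.33, unadjusted p of 0.0173, adjusted p of 0.367 in edgeR's quasi-likelihood test). Slpi, an inhibitor of neutrophil elastase, was at 1.49, Ctsk, cathepsin K, at 0.58, and Timp1, an inhibitor of metalloproteinases, at -0.35, each with a standard error of at least 0.37. Ctsl was the highest per length at 494 TPM. Elane, Ctsg and Timp4 were not tested for low counts, and Ctsv matched no row.

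The remaining marker lists are given for the libraries' make-up. At an unadjusted p under 0.05 in edgeR's quasi-likelihood test, 2 of 15 stroma markers and 2 of 5 blood genes were lower and none of either list was higher. With a library left out, 1 to 10 of 15 stroma markers and 0 to 5 of 5 blood genes were lower. Among 8 endothelial markers, 8 macrophage markers, 10 markers of simple uterine epithelium and the 3 tested of 6 mesothelial markers, 0 passed that p in either direction. The median log2 fold change was -0.78 for stroma (-1.60 to -0.29 with a library left out), 6.78 for squamous epithelium (6.42 to 7.36) and -1.78 for blood (-2.10 to -0.63). It was -0.46 for pericytes (-0.71 to -0.19), and with the smooth muscle marker term the medians of pericytes and blood turned sign, to 0.71 and 0.23. For endothelium (-0.27), mesothelium (-0.63), simple epithelium (0.081) and macrophages (0.24) the median also turned sign in other fits. Without WT 1 it was 0.044 for endothelium and -0.11 for simple epithelium, without Thra1PV/+ 1 it was -0.11 for macrophages, and with limma voom it was 0.16 for mesothelium. Of 7 pericyte markers, 2 were called higher, Notch3 at a log2 fold change of 1.32 and Ndufa4l2 at 2.79, against 0.924% of all tested genes, while the other 5 had log2 fold changes below 0. With a library left out 1 or 2 were called, with the replicate block 1 and with the smooth muscle marker term 0. Summed pericyte markers ran from 190.4 to 356 CPM in Thra1PV/+ and from 168 to 457 CPM in WT libraries. Per length, the highest genes were Krt19 for mesothelium (616 TPM, also listed for simple epithelium), Lyz2 for macrophages (263 TPM), Ndufa4l2 for pericytes (60.2 TPM, with 104.9 in Thra1PV/+ and 15.5 in WT, where Rgs5 was higher at 53.6 TPM), Hba-a2 for blood (48.6 TPM) and Emcn for endothelium (16.9 TPM).

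The genes whose log2 CPM was most like that of Eln over the 8 libraries were Usp54 (Pearson r = 0.99), Gria3, Plscr4, Cdh6 and Fance (each r = 0.98). Cdh6, for example, measured 8.52 CPM in Thra1PV/+ 1, 8.45 in WT 1 and 9.79 in WT 2, and at most 2.07 CPM in the other 5 libraries. Those most like Lox were Dio3 (r = 0.96), Gm7413 (r = 0.94), and Clec1a, Mtcl1 and Pfdn1 (each r = 0.92). Dio3 measured 0.257, 0.284, 0.409 and 0.438 CPM in Thra1PV/+ 1 to 4 and 2.16, 0.506, 2.84 and 3.60 CPM in WT 1 to 4. As for Lox, WT 2 was the lowest WT library and the groups did not overlap. These correlations describe 8 libraries, out of 18174 genes searched.

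Exons of other genes overlap those of 6 members in the annotation. For Mfap4 the other gene is Mapk7 on the opposite strand, with 1086 to 1806 counts per library, whereas Mfap4 fell to 212 counts in Thra1PV/+ 2. The genes overlapping Eln, Fbn1, Fbn2 and Loxl2 that are in the count table held at most 12 counts in any library. The library kit marks strand, but whether counting used it is not given in the sources used here.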

How the data were processed

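Libraries of laser-captured endometrium were made with a stranded mRNA kit and read in pairs on an Illumina NextSeq sequencer. Trimmomatic (trimming) and salmon (estimated counts, mouse build mm10) were the authors' tools, and the submitters' processing notes give no version of either. The authors tested with DESeq2, at the thresholds used here. The authors deposited estimated counts per gene, not normalized, and a table of TPM values. The deposited TPM values, once sorted, differed between the 8 libraries by at most 0.291 TPM at any rank, a form that quantile normalization gives, and 1 further column of that table was not used.

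The deposited counts were rounded to whole numbers and tested in R 4.3.3 with edgeR 4.0.16 (filterByExpr with a minimum count of 10 and a minimum total of 15, TMM, glmQLFit and glmQLFTest with genotype as the only term). The Benjamini-Hochberg adjustment covered 18174 genes. Called genes differ at least 2-fold with an adjusted p no higher than 0.1. The standard error is the log2 fold change divided by the root of the F statistic. Log2 CPM used a prior count of 2. DESeq2 1.42.0, limma 3.58.1 (voom with sample quality weights, and log2 TPM with pseudocounts of 1 and 0.1), other normalizations and filters, a replicate term, each library left out and marker terms were alternatives. The tests were run first on simulated counts, where DESeq2 made a larger share of false calls than edgeR or limma. These counts were drawn gene by gene from edgeR's own estimates of spread. The simulated libraries did not differ in tissue make-up as the real ones do. The result therefore cannot rank the tests on these data, and the calls of DESeq2 are given as an alternative only.

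Libraries held 48791602 to 59818887 counts. The study gives 4 mice a genotype, and each library was taken as 1 mouse. Symbols matched 52220 of 52325 identifiers, and positions are from GENCODE M21 (GRCm38). The members and the gene lists were chosen with earlier results of these data known. Named genes are the 10 members, and, of each other pathway list, up to 6 called genes or the 4 genes with the smallest p-values, and the gene with the highest mean TPM. The 5 genes most correlated with Eln and with Lox are also named. Marker lists are given by counts, by the gene with the highest mean TPM and, for pericytes, by the called genes. Mapk7, Ltbp2, Ltbp4, Mfap5, Tagln, Rgs5, Vim, Ltf and Krt13 were chosen after their values were seen.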

Additional observations from a re-analysis of the deposited data

Results flagged for a closer look

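In 1 of 48 groups of 4 libraries examined (the 10 members and 14 lists, in both genotypes), a library lay far from the others by Dixon's ratio, the distance of the extreme library from its neighbour as a share of the group's range. In Thra1PV/+ endometrium, the log2 CPM of Lox was 5.43 in Thra1PV/+ 2 and between 6.01 and 6.13 in the other 3 libraries, a ratio of 0.834, above the 95% critical value for 4 libraries. Chance gives such a ratio in about 1 in 20 groups, so that 2.4 of 48 would be expected. Thra1PV/+ 2 also had the lowest summed stroma markers, at 597 CPM. Without it, the log2 fold change of Lox was -1.14 (adjusted p = 0.505, edgeR's quasi-likelihood test).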

How the results depend on the processing

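The number of genes called, 180, was 791 with DESeq2 (568 higher, 223 lower), 311 with limma voom (253 higher, 58 lower), 81 among genes with at least 10 counts in every library, 82 with the replicate block, 1775 at an unadjusted p under 0.05, and 435 and 73 with the stroma and smooth muscle marker terms, which were chosen after seeing the data. Leaving out a library gave 81 to 167 genes.

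The number of members called, 0, was 1 with DESeq2, 1 with limma voom, 2 at an unadjusted p under 0.05, and 0 to 1 with a library left out. It was 0 under the other settings. At an unadjusted p under 0.05, 2 of 10 members were lower in edgeR and 7 with limma voom. The median log2 fold change of the members, -0.81, was -1.27 with limma voom, -0.11 with the stroma marker term and 0.060 with the smooth muscle marker term, and ran from -1.66 to -0.45 with a library left out. The cause was not tested.

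Single members changed sign in 12 cases. Fbn2 was at 0.040 with the replicate block, above 0 without Thra1PV/+ 2, Thra1PV/+ 3 or WT 1 (-0.42 to 0.40 over the libraries left out), at 0.11 with the stroma term and at 0.82 with the smooth muscle term. Eln was at 0.089 and 0.32, and Loxl2 at 0.016 and 0.59, with these terms, and Fbn1 at 0.24 and Fbln2 at 0.046 with the smooth muscle term.

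Same-numbered libraries were not alike throughout: the correlations of their deviations from the group mean were 0.27, -0.44, 0.34 and -0.16, and 2 of 8 correlated best with their own number. Such correlations cannot show whether libraries of 1 number were handled together. With the replicate block, 82 genes and 0 members were called and the median of the members was -1.01.

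With 4 libraries a genotype, and standard errors of 0.34 to 1.05 on the log2 scale, a p that misses the threshold does not show that levels were equal.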
